A study of Mus musculus with 16 samples.

Results

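A group of 10 genes was described that encode stress-responsive and Z-disc proteins of striated muscle and its actins, namely Ankrd1, Ankrd2, Ankrd23, Csrp3, Xirp1, Xirp2, Nrap, Flnc, Acta1 and Actc1. They were taken by symbol, as the rows of the count table whose Ensembl identifiers carry these symbols in the GENCODE annotation of the mouse build GRCm38. The table held 29730 genes, of which 14960 passed the filter on low counts and were tested, and all 10 members passed it. All 10 are protein-coding genes in that annotation.

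The Z-disc is the plate at each end of a sarcomere in which actin filaments of opposite polarity are anchored and through which force passes to the next sarcomere. Several of its proteins do more than hold filaments: ankyrin repeat and LIM domain proteins shuttle between the sarcomere and the nucleus, and Xin repeat proteins gather with filamin C at damaged or remodelling sarcomeres. Their transcripts are known to respond to stretch, denervation and injury, whereas the skeletal actin gene is among the most abundant transcripts of muscle at rest.

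RNA was sequenced from the tibialis anterior, the fast muscle along the shin, in 16 male C57BL/6N mice at 7 weeks of age. The 4 groups held 4 mice each: wild type given phosphate-buffered saline (WT_PBS), wild type given the antisense oligonucleotide ASO1 (WT_ASO), Bin1mck-/- mice given saline (KO_PBS) and Bin1mck-/- mice given ASO1 (KO_ASO). Bin1 encodes a membrane-bending protein, Bin1mck-/- mice model recessive centronuclear myopathy, and ASO1 was designed against Dnm2, which encodes the membrane-severing enzyme dynamin 2. None of the groups is labelled as given a control oligonucleotide, and no source read here states the driver of the deletion, its extent or the dose of ASO1.

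Libraries held 27591900 to 40862854 counts, and the lowest count of any member in any sample was 242, for Ankrd1. Levels are given as CPM, in which counts are divided by a library size that TMM normalization, a trimmed mean of gene-wise log ratios, has adjusted. Bin1 measured 494.7 ± 40.6 CPM (SD, n = 4) in WT_PBS and 44.9 ± 3.27 CPM in KO_PBS, and Dnm2 measured 62.8 ± 3.63 CPM in KO_PBS and 24.8 ± 4.48 CPM in KO_ASO, so the targeted transcripts followed the labels. Of 6 markers of fast skeletal muscle (Ckm, Mylpf, Myh4, Myh1, Tnnt3, Pvalb), all were detected, with a summed level of 81436 to 160750 CPM per sample. Of 4 heart markers, the atrial genes Nppa and Myl7 fell below the filter, with group means of at most 0.145 and 0.026 CPM, while Myh6, the cardiac alpha myosin, had group means of 3.5 to 5.41 CPM and Myl4 of 5.61 to 15.2 CPM.

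The 250 bases before the RefSeq transcription start were available for 9 of the 10 members. The windows of Csrp3, Xirp2 and Flnc, which rose in the saline knockouts, and of Acta1, which did not pass the test, are shown so that the sequence elements known from muscle promoters can be read beside the values. Windows are written 5′ to 3′ in the direction of transcription (RefSeq, GRCm38.p6), with matches to the motifs searched in capitals.
Csrp3, chr7:48848052-48848301, minus strand: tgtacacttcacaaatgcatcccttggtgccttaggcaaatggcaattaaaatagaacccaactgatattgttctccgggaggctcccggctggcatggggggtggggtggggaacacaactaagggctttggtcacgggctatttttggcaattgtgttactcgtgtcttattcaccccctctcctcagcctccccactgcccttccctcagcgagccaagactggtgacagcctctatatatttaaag
Xirp2, chr2:67445752-67446001, plus strand: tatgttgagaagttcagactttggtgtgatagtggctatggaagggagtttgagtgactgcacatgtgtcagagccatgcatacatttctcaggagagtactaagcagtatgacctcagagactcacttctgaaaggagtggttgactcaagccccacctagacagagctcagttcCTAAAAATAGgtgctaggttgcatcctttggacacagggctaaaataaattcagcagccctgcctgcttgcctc
Flnc, chr6:29433006-29433255, plus strand: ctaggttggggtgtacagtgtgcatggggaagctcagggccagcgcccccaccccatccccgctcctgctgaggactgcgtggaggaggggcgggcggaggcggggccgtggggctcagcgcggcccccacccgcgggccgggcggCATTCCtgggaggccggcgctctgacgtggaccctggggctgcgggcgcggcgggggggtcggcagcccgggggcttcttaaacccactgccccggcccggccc
Acta1, chr8:123894776-123895025, minus strand: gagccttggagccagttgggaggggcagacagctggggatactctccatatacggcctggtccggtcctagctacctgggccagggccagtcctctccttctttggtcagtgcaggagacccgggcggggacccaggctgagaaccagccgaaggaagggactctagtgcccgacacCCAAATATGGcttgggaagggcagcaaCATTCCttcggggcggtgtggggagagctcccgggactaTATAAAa
The motifs searched on both strands were the TATA box (TATAAA), the MCAT element bound by TEAD factors (CATTCC), the CArG box bound by serum response factor and the MEF2 box. The Acta1 window held a CArG box 73 to 64 bases, an MCAT element 46 to 41 bases and a TATA box 7 to 2 bases before the RefSeq start. That start lies 24 bases upstream of the GENCODE start of Acta1. The Xirp2 window held a MEF2 box 74 to 65 bases before the start, the Flnc window an MCAT element 104 to 99 bases before it, and the Csrp3 window none of the 4. Of the members not printed, Ankrd1 held 2 MCAT elements, Ankrd2 a TATA box and Actc1 a CArG box, and Ankrd23 and Nrap held none. The RefSeq starts of Ankrd1, Ankrd23 and Actc1 lie 255, 327 and 673 bases inside the GENCODE genes, and so do their windows. Ankrd23, Csrp3 and Flnc had 2 windows each, of which the one nearest the GENCODE start was used. Over 32817 distinct windows of the same length, 12.4% held the TATA box, 12.6% the MCAT element, 1.47% the CArG box and 0.51% the MEF2 box. No match overlapped another, and a match describes letters in a window, not binding.

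To compare the members with each other, levels were expressed per length as TPM, which divides counts by exon length before scaling each sample to the same total. Over all 16 samples Acta1, the skeletal actin of the thin filament, was the most abundant at 71837 ± 6744 TPM (SD, n = 16). Nrap followed at 1262 ± 245 TPM, Actc1 at 1054 ± 563 TPM, Flnc at 614 ± 285 TPM, Ankrd2 at 550 ± 402 TPM and Xirp2 at 543 ± 173 TPM. Csrp3 at 282 ± 326 TPM, Ankrd23 at 277 ± 67.1 TPM and Xirp1 at 183 ± 127 TPM came next, and Ankrd1 was the lowest at 35.7 ± 35.6 TPM. The differences between Nrap and Actc1, among Flnc, Ankrd2 and Xirp2, and between Csrp3 and Ankrd23 were smaller than their SDs. This order pools groups that differ, and by group means it changed. In WT_PBS Csrp3 (86.0 TPM) lay below Xirp1 (99.1 TPM) and Ankrd23 (281 TPM), and Flnc (415 TPM) below Xirp2 (459 TPM). In KO_PBS Csrp3 (647 TPM) and Xirp1 (368 TPM) lay above Ankrd23 (227 TPM). The spread within a group also differed between members: in WT_PBS the coefficient of variation (CV) was 4.5% for Xirp2 and 6.35% for Nrap, but 50.2% for Actc1 and 59.0% for Csrp3.

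The comparison of KO_PBS with WT_PBS asked what loss of Bin1 does to these genes in untreated muscle. Xirp1, Flnc, Xirp2, Ankrd1 and Csrp3 were higher in the knockouts, by 1.49-fold for Xirp2 to 6.84-fold for Csrp3, and neither actin passed the test. edgeR called 5 of the 10 members at an adjusted p under 0.05, all 5 higher, where 12.6% of all tested genes were called and 7.43% were called higher. The median log2 fold change (log2FC) of the 10 members was 0.85, against -0.01 over all tested genes. In 7 members the samples of the 2 groups did not overlap, 6 higher and 1 lower, where 20.4% of all tested genes did not overlap, 10.5% higher and 9.85% lower. The count of members called fell to 3 without WT_PBS replicate 1, WT_PBS replicate 4, KO_PBS replicate 1 or KO_PBS replicate 4, and to 2 without WT_PBS replicate 2. In the same order, calls over all tested genes fell from 1878 to 1595, 1080, 997, 1508 and 1256.

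**Figure D1:**
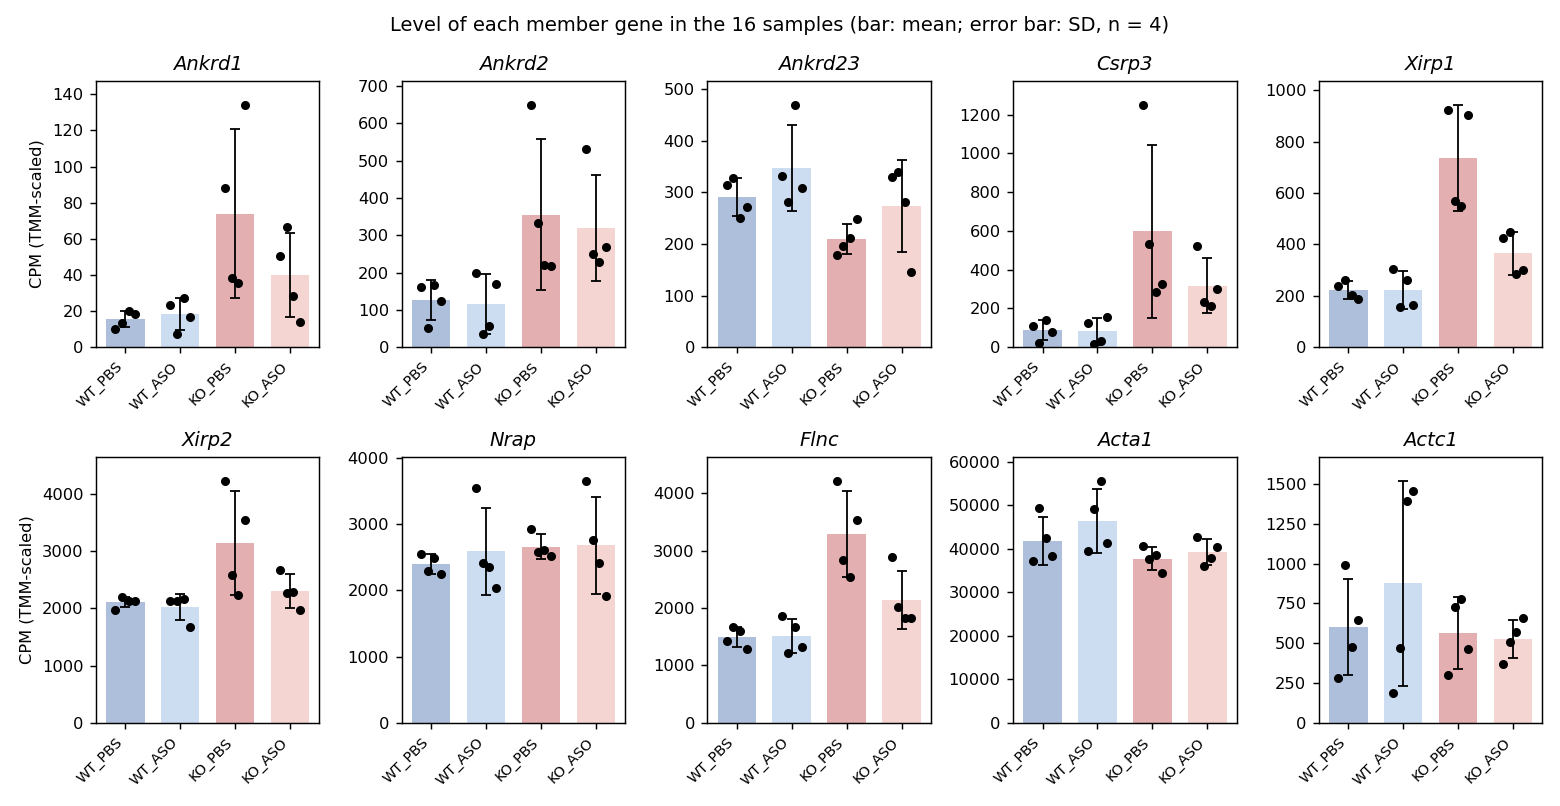
CPM (TMM-scaled, linear axis from 0) of each member in the 16 samples, with points for samples, bars for group means and error bars for the SD (n = 4). For Xirp1 the KO_PBS points lie between 547.7 and 923.9 CPM, above the WT_PBS points at 188.1 to 262.3 CPM, whereas the 4 groups overlap for Actc1.

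Xirp1 (ENSMUSG00000079243, chromosome 9, 120013755 to 120023598, minus strand, GRCm38) encodes Xin, an actin-bundling repeat protein that binds filamin C. It read 237.9, 262.3, 202.0 and 188.1 CPM in the WT_PBS samples and 923.9, 569.2, 547.7 and 903.0 CPM in the KO_PBS samples. Even the lowest knockout lay well above every wild type, and replicates 1 and 4 were the high pair. The log2FC was 1.73 (SE 0.245, 95% interval 1.21 to 2.25, edgeR adjusted p = 0.000313), and the exact permutation p (two-sided) was 0.0286, the lowest value possible with 4 samples a group. The span of the gene overlaps that of Cx3cr1 on the same strand, and 0 of its 5838 transcript stretches of 50 bases occur in transcripts of another gene.

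Flnc (ENSMUSG00000068699, chromosome 6, 29433256 to 29461883, plus strand) encodes filamin C, the muscle filamin that crosslinks actin at the Z-disc and is a binding partner of Xin. It read 1425, 1674, 1605 and 1292 CPM in WT_PBS and 4217, 2840, 2543 and 3540 CPM in KO_PBS. The groups were apart, and replicates 1 and 4 were again the high knockouts. The log2FC was 1.13 (SE 0.186, 95% interval 0.74 to 1.52, edgeR adjusted p = 0.00097). The calls of Xirp1 and Flnc held in all 23 alternative settings, with the highest adjusted p at 0.0023 and 0.00581.

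Xirp2 (ENSMUSG00000027022, chromosome 2, 67446002 to 67526614, plus strand) encodes the second Xin repeat protein, also called myomaxin. It read 1982, 2209, 2137 and 2126 CPM in WT_PBS, the tightest group of any member, and 4232, 2579, 2238 and 3542 CPM in KO_PBS. The knockouts were spread widely, and replicate 3 stood only just above the highest wild type. The log2FC was 0.57 (SE 0.163, 95% interval 0.23 to 0.92, edgeR adjusted p = 0.0297). The call of Xirp2 was lost without any single WT_PBS sample (adjusted p of 0.0567 to 0.0694), without KO_PBS replicate 1 (0.117) or replicate 4 (0.0714), in limma-voom (0.0503) and with only the compared groups in the fit (0.0582). The ratio of Xirp1 to Xirp2 CPM, which does not depend on the scaling of libraries, was 0.0885 to 0.12 in WT_PBS and 0.218 to 0.255 in KO_PBS.

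Nrap (ENSMUSG00000049134, chromosome 19, 56320035 to 56390037, minus strand) encodes a nebulin-related anchoring protein of muscle ends and of forming myofibrils. It read 2553, 2285, 2492 and 2244 CPM in WT_PBS and 2931, 2583, 2606 and 2521 CPM in KO_PBS. The groups overlapped by a single pair of samples. Nrap was not called, with a log2FC of 0.15 whose 95% interval ran from -0.22 to 0.53 (edgeR adjusted p = 0.626).

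The members Ankrd1, Ankrd2 and Ankrd23 encode the muscle ankyrin repeat proteins, which bind titin in the sarcomere and act with transcription factors in the nucleus. Ankrd1 (ENSMUSG00000024803, chromosome 19, 36111961 to 36120099, minus strand), the stretch- and denervation-responsive member, read 10.2, 13.4, 19.8 and 18.3 CPM in WT_PBS and 87.9, 38.2, 35.8 and 134.0 CPM in KO_PBS. Every knockout lay above every wild type, although the knockouts themselves differed by 3.74-fold. The log2FC was 2.26 (SE 0.554, 95% interval 1.07 to 3.45, edgeR adjusted p = 0.0173). The call was lost without WT_PBS replicate 2 (adjusted p = 0.0536) or KO_PBS replicate 4 (0.0548), the highest sample.

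Ankrd2 (ENSMUSG00000025172, chromosome 19, 42036000 to 42045110, plus strand), the member known from slow fibres and stretched muscle, read 161.7, 51.3, 167.1 and 122.8 CPM in WT_PBS and 648.9, 333.4, 220.5 and 217.7 CPM in KO_PBS. The groups did not overlap, with replicate 1 far above the other knockouts and WT_PBS replicate 2 well below the other wild types. Ankrd2 was not called (log2FC 1.5, SE 0.561, 95% interval 0.29 to 2.70, edgeR adjusted p = 0.098). DESeq2 (adjusted p = 0.0445), limma-voom (0.0478) and a fit to the compared groups alone (0.0417) did call it.

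Ankrd23 (ENSMUSG00000067653, chromosome 1, 36530188 to 36536883, minus strand), known as the diabetes-related ankyrin repeat protein, was the member whose KO_PBS samples all lay below WT_PBS. Acta1 and Actc1 also had log2FC values below 0, with groups that overlapped. Ankrd23 read 314.3, 328.6, 250.9 and 270.7 CPM in WT_PBS and 179.0, 196.5, 212.3 and 248.5 CPM in KO_PBS. The groups were apart by the small gap between 248.5 and 250.9 CPM. Ankrd23 was not called (log2FC -0.48, SE 0.218, 95% interval -0.94 to -0.01, edgeR adjusted p = 0.169). limma-voom (adjusted p = 0.045), a fit to the compared groups alone (0.0293) and a fit without KO_ASO replicate 4 (0.0431) did call it lower. Of its transcript stretches of 50 bases, 75.0% also occur in Gm42417 or Gm38365. Gm42417 shares exons with it on the same strand and has no row in the count table, so how its reads were counted is not known.

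Csrp3 (ENSMUSG00000030470, chromosome 7, 48830398 to 48848033, minus strand) encodes muscle LIM protein, a Z-disc protein and nuclear cofactor that is enriched in slow fibres and heart. It read 111.3, 20.3, 140.8 and 77.9 CPM in WT_PBS and 1249, 534.1, 285.6 and 328.2 CPM in KO_PBS. The lowest knockout was above the highest wild type, and replicate 1 stood far above the next knockout. The log2FC was 2.77 (SE 0.772, 95% interval 1.11 to 4.43, edgeR adjusted p = 0.0318). Without KO_PBS replicate 1 the log2FC was 2.13 (adjusted p = 0.115), and the call was also lost without WT_PBS replicate 1 (0.06), 2 (0.0744) or 4 (0.0874), without KO_PBS replicate 2 (0.0504) and with no filter on low counts (0.0816).

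Acta1 (ENSMUSG00000031972, chromosome 8, 123891769 to 123894751, minus strand) read 37110, 49325, 42363 and 38220 CPM in WT_PBS and 40597, 37577, 38464 and 34354 CPM in KO_PBS. The groups overlapped (log2FC -0.15, 95% interval -0.41 to 0.12, edgeR adjusted p = 0.495), and with library totals as the only scaling the log2FC was 0.01. Actc1 (ENSMUSG00000068614, chromosome 2, 114047282 to 114053548, minus strand), the cardiac actin that is also the fetal isoform of skeletal muscle, read 282.7, 991.3, 476.4 and 648.0 CPM in WT_PBS and 299.0, 725.7, 778.3 and 461.9 CPM in KO_PBS. The groups covered nearly the same range (log2FC -0.08, 95% interval -1.25 to 1.09, edgeR adjusted p = 0.943), so a change of more than 2-fold in either direction was within the interval. In the 16 samples Actc1 CPM came to 0.483% to 3.52% of Acta1 CPM. Of the Acta1 stretches of 50 bases 2.02% occur in other actin transcripts, and of the Actc1 stretches 0%.

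**Figure D2:**
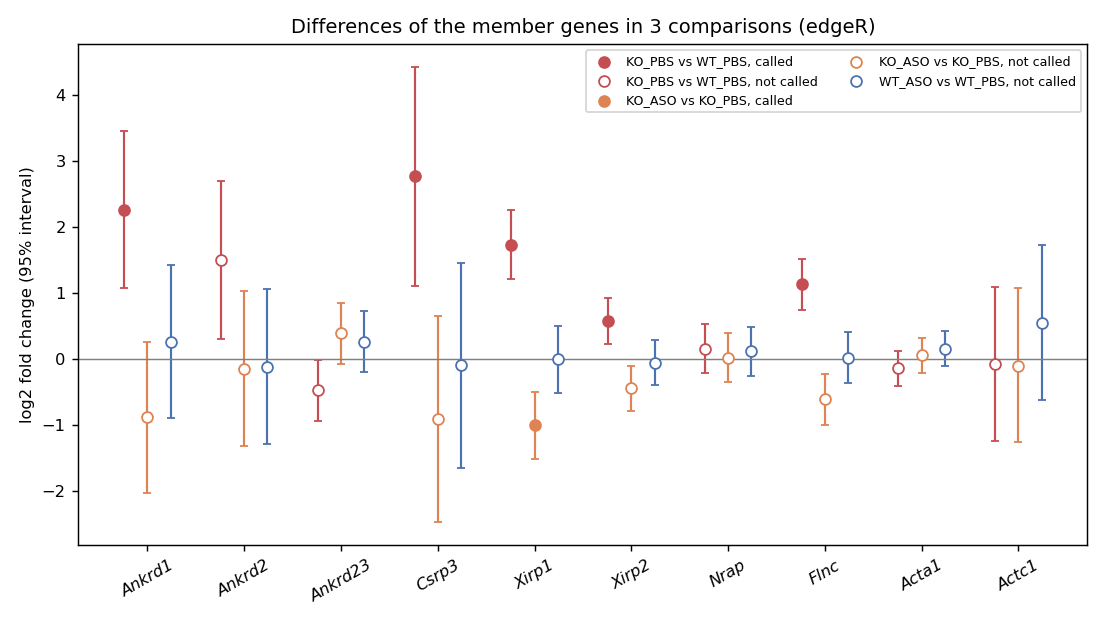
Log2 fold change of each member in 3 comparisons (edgeR), with 95% intervals as bars, filled points for an adjusted p under 0.05 and open points for the rest. The KO_PBS vs WT_PBS points of Csrp3 (2.77), Ankrd1 (2.26), Xirp1 (1.73), Flnc (1.13) and Xirp2 (0.57) are filled, and of the other comparisons the KO_ASO vs KO_PBS point of Xirp1 (-1.01) is the filled one.

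Single animals carried several members at once. KO_PBS replicate 1 was the highest of its group in 7 of the 10 members and KO_ASO replicate 1 and WT_PBS replicate 2 in 6 each, while WT_ASO replicate 2 was the lowest of its group in 6. A list of 9 slow-fibre genes was read beside the members because Csrp3 and Ankrd2 are enriched in slow fibres. Its summed level was 357.1, 166.9, 262.0 and 225.9 CPM in WT_PBS, 277.3, 158.2, 147.9 and 270.3 CPM in WT_ASO, 491.0, 371.3, 308.6 and 270.4 CPM in KO_PBS and 752.2, 335.8, 278.0 and 335.4 CPM in KO_ASO. Within KO_PBS and within KO_ASO, which hold different mice, the group's replicate 1 was highest for Csrp3, for Ankrd2 and for the slow-fibre sum. In WT_PBS replicate 2 and in KO_ASO replicate 3 were lowest for all 3. The other extremes differed: in WT_PBS replicate 3 was highest for both genes but replicate 1 for the slow-fibre sum, in WT_ASO replicate 4 was highest for Csrp3 but replicate 1 for Ankrd2 and the sum, in WT_ASO replicate 2 was lowest for both genes but replicate 3 for the sum, and in KO_PBS replicate 3 was lowest for Csrp3 but replicate 4 for Ankrd2 and the sum. In KO_PBS vs WT_PBS edgeR called 2 of the 9 slow-fibre genes higher and 0 lower (4 at an unadjusted p under 0.05, 3 called by DESeq2, 2 by limma-voom, and 4 with the compared groups alone or the replicate block), with a median log2FC of 1.18. The called genes were Tnni1, the slow troponin I (log2FC 3.10, adjusted p = 0.00414), and Atp2a2, the slow-type calcium pump (log2FC 0.76, adjusted p = 0.00924). Over all tested genes 7.43% were called higher. Of the 9 genes 7 had a log2FC above 0. Myl3, the list's most abundant gene in WT_PBS, measured 120.6 CPM there and 88.35 CPM in KO_PBS. Myh7b measured 5.58 and 4.59 CPM, and neither was called. In whole muscle, more cells of a type and more RNA per cell cannot be told apart, and the part of fibre type in the values of Csrp3 and Ankrd2 was not tested.

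**Figure D3:**
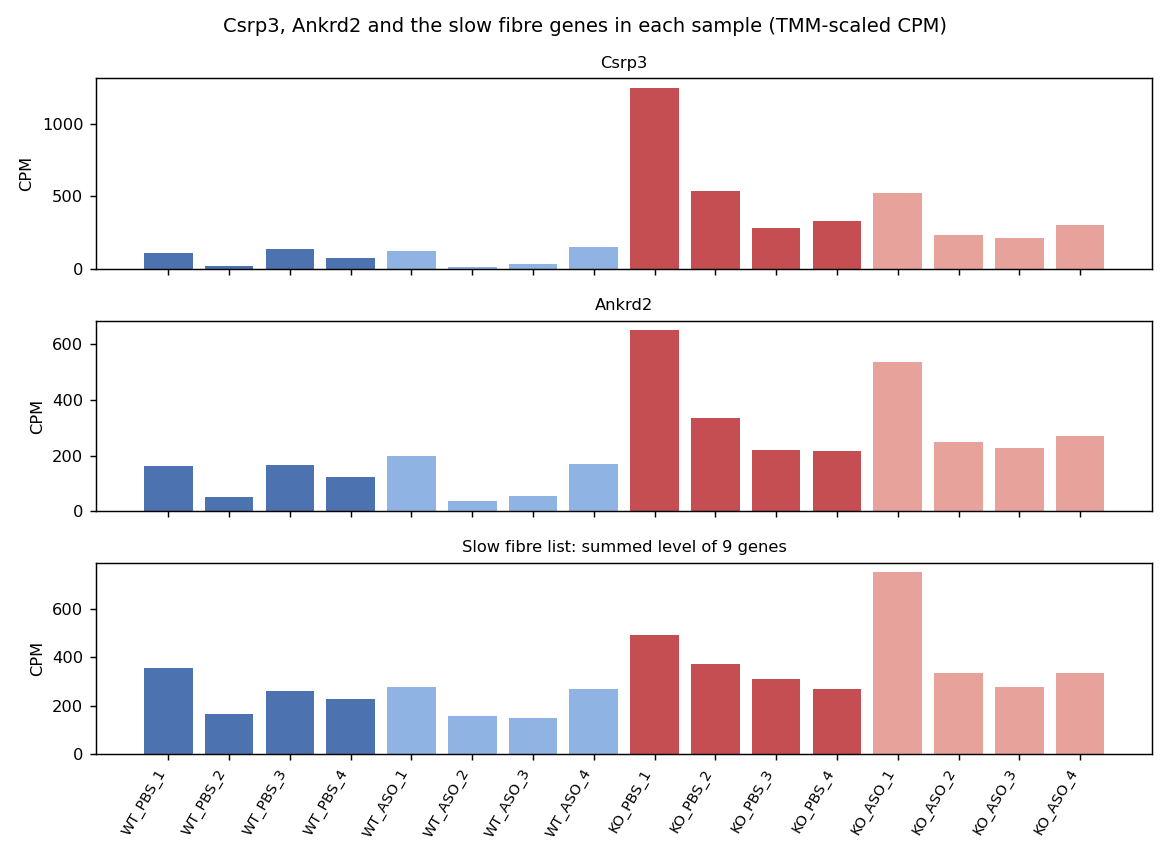
Bars give the TMM-scaled CPM (linear axes from 0) of Csrp3, Ankrd2 and the summed slow-fibre list in each of the 16 samples. Replicate 1 is the tallest bar of KO_PBS (1249, 648.9 and 491.0 CPM) and of KO_ASO (522.7, 532.6 and 752.2 CPM) in all 3 panels.

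Other cells and states were read by marker lists. Calls from other settings (another filter, scaling, tool or sample set, or a replicate block) are given beside counts that moved, but not from every setting. In KO_PBS vs WT_PBS 12.6% of all tested genes were called, and 7.43% were called higher. All 6 macrophage markers were called higher in KO_PBS than in WT_PBS (Cd68 log2FC 3.41, Cd163 1.51, Csf1r 1.67), with a summed level of 29.7 to 51.6 CPM in WT_PBS and 82.8 to 257.0 CPM in KO_PBS, and KO_PBS replicate 4, the highest for Ankrd1, was also the highest for this sum. With no filter on low counts 4 of the 6 were called. Of 5 tested genes of regenerating fibres, Myog (log2FC 2.70) and Myh8 (0.97) were called higher (2 or 3 over the settings), and Myod1 was at -0.25. Of 4 fibroblast markers Pdgfra (0.95) and Dcn (0.58) were called higher (0 without a filter on low counts, 3 with the compared groups alone). The 3 satellite cell markers Pax7 (-1.39), Myf5 (-1.30) and Calcr (-2.43) were called lower, of which 2 remained with library totals alone. Of 5 smooth muscle markers Myh11 (-0.45) and Tagln (-0.49) were called lower, while Cnn1 was at 0.52 and not called. Of the 6 fast-muscle markers Tnnt3 (-0.40) and Pvalb (-0.73) were called lower, while Myh1 was at 0.35 and not called. Cnn1 and Myh1 were each the 1 gene of their list with a log2FC above 0. None of these 4 calls held with library totals alone. With no filter 1 of the fast-muscle markers was called lower, and DESeq2 called 4 of them lower. Of the 2 tested heart markers Myl4, also an embryonic light chain of skeletal muscle, was called higher (1.44), while Myh6 had a log2FC of -0.51 (adjusted p = 0.413). Of 3 endothelial markers edgeR called 0 (0 at an unadjusted p under 0.05, and 0 in DESeq2 and in limma-voom), with a median log2FC of -0.18. The part of these cells in the members' values was not tested.

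The partners of the members were described from lists of known function, chosen with earlier results of these data known. In KO_PBS vs WT_PBS 12.6% of all tested genes were called, and 7.43% were called higher. Of 11 chaperones that serve the Z-disc and filamin, 8 were called higher in KO_PBS and 0 lower, with a median log2FC of 0.68, and over the settings 6 (no filter, or the compared groups alone) to 9 (library totals alone) were called higher and 0 lower. Hspb1, the small heat shock protein that binds actin and filamin, rose from 20.5 to 58.5 CPM (log2FC 1.51, SE 0.187, edgeR adjusted p = 9.56e-05), Hspb7, which binds filamin C, from 556 to 2244 CPM (2.01, SE 0.336, 0.00137) and Hspb3 from 20.2 to 33.4 CPM (0.72, SE 0.132, 0.00207). Of 24 Z-disc proteins and titin partners 6 were called higher and 3 lower, with a median of -0.05, and over the settings 6 or 7 were called higher and 0 (library totals alone) to 5 (limma-voom) lower. Des, the intermediate filament protein desmin, was the clearest of them (log2FC 0.75, adjusted p = 0.000118), with Smpx, the small muscle protein of the costamere (0.75, 0.000232), and Pdlim3, an actinin-binding LIM protein (0.77, 0.0044). Of 14 genes of thin filament assembly 3 were called higher and 1 lower (3 or 4 higher and 1 or 2 lower over the settings): Klhl40, which stabilises nebulin and leiomodin, rose 1.56 on the log2 scale (adjusted p = 8.96e-06) and Klhl41 rose 0.56 (0.00448), while Tpm1, the fast alpha-tropomyosin, fell by 0.61 (0.0138).

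The transcription factors and cofactors known to act on CArG and MCAT elements were read as transcripts only. Of 11 tested in KO_PBS vs WT_PBS, edgeR called 2 higher and 0 lower, where 7.43% of all tested genes were called higher. DESeq2, limma-voom and a fit to the compared groups alone each called 2 higher and 1 lower, and library totals alone 3 higher and 0 lower. Tead4 rose from 7.33 to 22.2 CPM (log2FC 1.60, SE 0.309, edgeR adjusted p = 0.00365) and Wwtr1, the TEAD cofactor TAZ, from 34.5 to 43.4 CPM (0.33, SE 0.0933, 0.028). Of 7 close relatives of the members edgeR called 0 (1 at an unadjusted p under 0.05, 0 in DESeq2 and 0 in limma-voom), the smallest p-values being those of Csrp1 (log2FC 0.29, adjusted p = 0.175) and Csrp2 (0.54, 0.189). Of the 4 other actin genes edgeR called 0 (1 at an unadjusted p under 0.05, 0 in DESeq2 and 0 in limma-voom), with Acta2, the smooth muscle actin, at a log2FC of -0.33 (adjusted p = 0.15) and Actb, the cytoplasmic beta actin, at 0.18 (0.428).

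**Figure D4:**
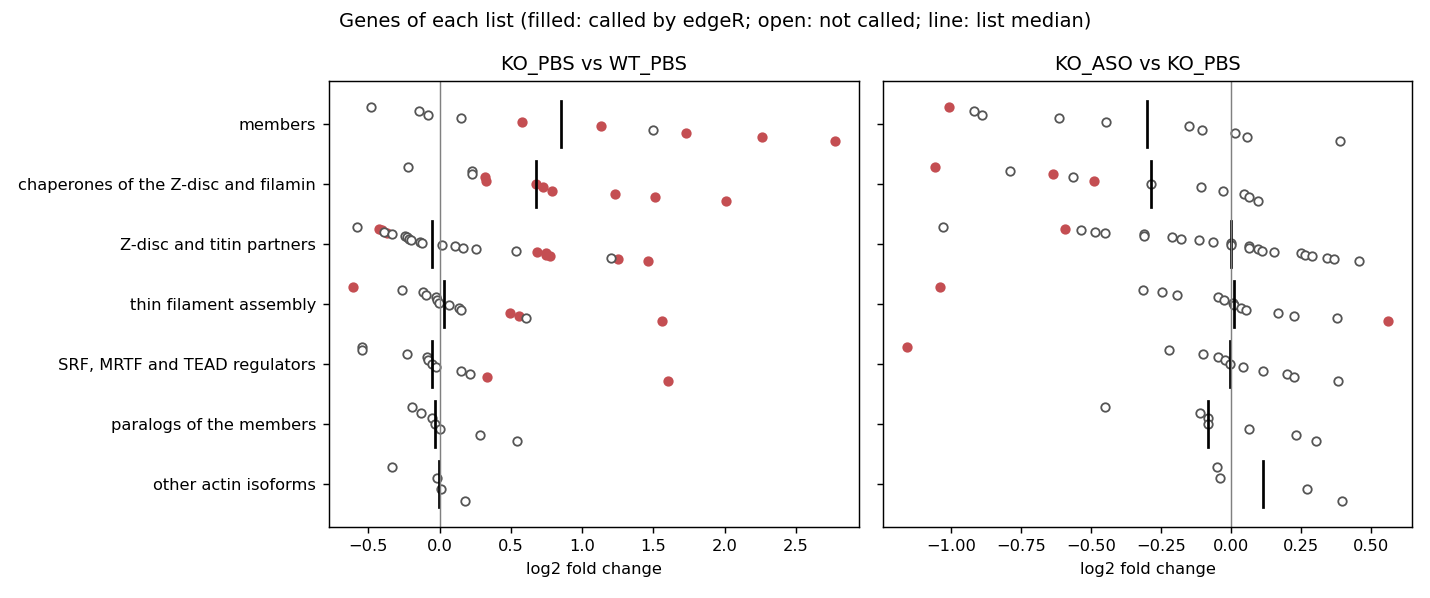
Log2 fold changes of the genes of 7 lists (the members, chaperones, Z-disc partners, thin filament genes, regulators, relatives of the members and other actins) in KO_PBS vs WT_PBS (left) and KO_ASO vs KO_PBS (right), with a point per gene, filled where edgeR called it, and a black line at the list median. Of these 7 lists the members (0.85) and the chaperones (0.68) have the medians farthest from 0 in the left panel, and in the right panel their medians are -0.30 and -0.29. The members and lists were chosen with earlier results of these data known.

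The comparison of KO_ASO with KO_PBS asked how the members stood in knockouts after lowering of Dnm2. Xirp1 fell to 49.6% of its KO_PBS mean, and Flnc and Xirp2 measured 65.3% and 73.3% of theirs without passing the test. Xirp1 was the 1 member of 10 called, where 3.64% of all tested genes were called and 2.83% were called lower. The median log2FC of the 10 members was -0.30, against 0.01 over all tested genes. Both comparisons above use the same KO_PBS samples, so a low or high KO_PBS sample moves each member in them in opposite directions.

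Xirp1 read 426.4, 448.0, 284.9 and 299.8 CPM in KO_ASO, against 923.9, 569.2, 547.7 and 903.0 CPM in KO_PBS. The groups did not overlap, as for 10.4% of all tested genes (6.34% lower). The log2FC was -1.01 (SE 0.24, 95% interval -1.52 to -0.50, edgeR adjusted p = 0.0313, exact permutation p = 0.0286, the smallest possible). The call was lost without KO_PBS replicate 1 (adjusted p = 0.105) or 4 (0.0785), the high knockouts, without KO_ASO replicate 1 (0.0621), 3 (0.0907) or 4 (0.0558), with no filter (0.0913) and with the compared groups alone (0.0533). The count of members called was 0 without KO_PBS replicate 1, KO_PBS replicate 4 or KO_ASO replicate 3, and 3 without KO_PBS replicate 3. In the same order, calls over all tested genes were 208, 322, 263 and 548, against 544 with all samples. The ratio of Xirp1 to Xirp2 CPM was 0.124 to 0.197 in KO_ASO, below every KO_PBS sample.

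Flnc read 2894, 2024, 1828 and 1830 CPM in KO_ASO, and only replicate 1 reached into the KO_PBS range of 2543 to 4217 CPM. It was not called (log2FC -0.62, SE 0.184, 95% interval -1.01 to -0.23, edgeR adjusted p = 0.0753), but was called lower by DESeq2 (adjusted p = 0.0228), with library totals alone (0.0277) and without KO_PBS replicate 3 (0.0469) or KO_ASO replicate 1 (0.0395). Xirp2 read 2681, 2277, 2297 and 1971 CPM in KO_ASO (log2FC -0.45, 95% interval -0.79 to -0.10, adjusted p = 0.145), with 3 of the 4 samples within the KO_PBS range. Without KO_PBS replicate 3, the lowest knockout, Xirp2 was called (adjusted p = 0.045).

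The remaining members were not called in KO_ASO vs KO_PBS, and their intervals covered 0. Ankrd1 read 50.6, 66.7, 28.6 and 13.7 CPM in KO_ASO, from the wild-type range to well inside the KO_PBS range (log2FC -0.89, 95% interval -2.03 to 0.25). Csrp3 read 522.7, 232.6, 210.8 and 302.5 CPM (-0.92, 95% interval -2.48 to 0.65), and Ankrd2 read 532.6, 249.5, 227.1 and 269.2 CPM (-0.15, 95% interval -1.33 to 1.03). For Csrp3 and Ankrd2 all 4 treated knockouts thus stayed above every WT_PBS and WT_ASO sample. Ankrd23 read 330.1, 339.1, 281.4 and 145.4 CPM (0.39, 95% interval -0.07 to 0.85), with 3 samples above every KO_PBS sample and replicate 4 below all of them, and without that replicate Ankrd23 was called higher (adjusted p = 0.039). Nrap (0.01), Acta1 (0.06) and Actc1 (-0.10) differed by little, although the interval of Actc1 ran from -1.27 to 1.07.

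**Figure D5:**
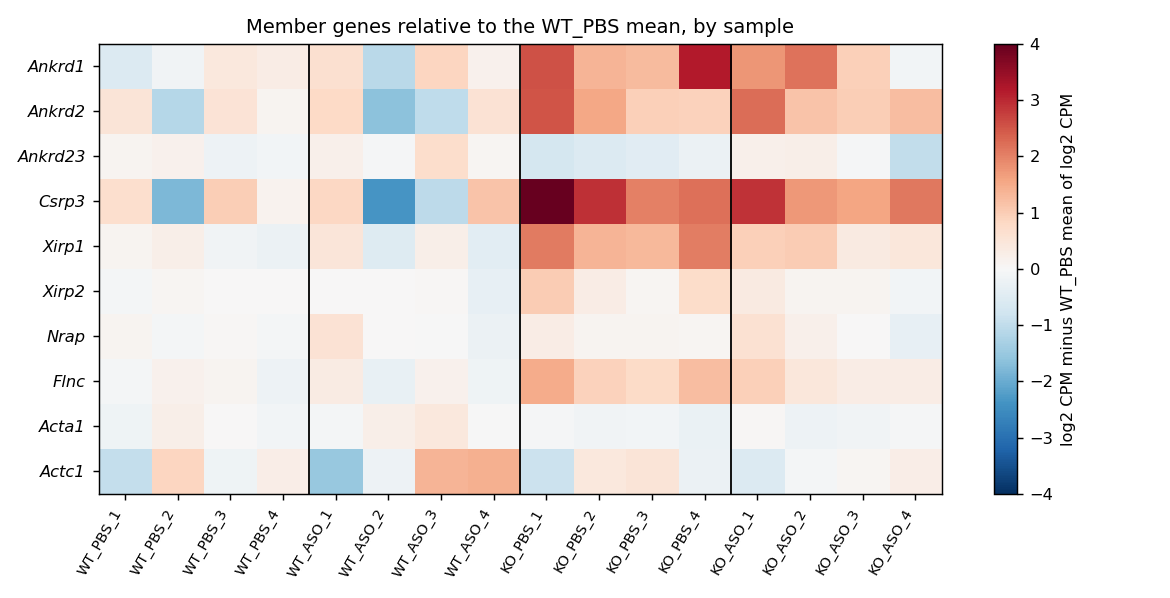
Each cell gives the log2 CPM of a member in a sample minus the mean of log2 CPM over the 4 WT_PBS samples, with red above and blue below, and black lines between groups. Csrp3, Ankrd2, Xirp1 and Flnc are red in all 4 KO_PBS samples, Xirp1 and Flnc are paler in KO_ASO, and Nrap and Acta1 stay near white while Actc1 varies within each group.

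Over all tested genes 3.64% were called in KO_ASO vs KO_PBS, and 2.83% were called lower. Among the partner lists, 3 chaperones were called lower in KO_ASO than in KO_PBS and 0 higher, with a median log2FC of -0.29: Hspb1 fell by 1.06 (adjusted p = 0.00521), Hspb3 by 0.49 (0.0481) and Hspb8, named after its value was seen, by 0.64 (0.0346). With the compared groups alone 2 were called. Des was the 1 Z-disc partner of 24 called, a count near the share of all tested genes. It fell by 0.60 on the log2 scale (adjusted p = 0.00303), while DESeq2 and limma-voom each called 2 higher and 2 lower in that list and library totals alone 3 lower. Of the thin filament genes Klhl40 fell by 1.04 (adjusted p = 0.00103) and Tpm1 rose by 0.56 (0.0475), with 0 called higher in that list with the compared groups alone. Of the 11 tested regulators Tead4 was the 1 called and fell by 1.16 (0.0477), and 0 were called with no filter or with the replicate block. Of the 5 regenerating-fibre genes, whose median log2FC was 0.00431, Myh8 was called lower (-0.93, 0.0214), while Myod1 measured 22.4 CPM against 10.1 CPM without passing the test (1.15, 0.0692). DESeq2 called 1 of these genes higher and 1 lower, limma-voom 2 lower, and the compared groups alone 0. The macrophage sum was 30.5 to 44.2 CPM in KO_ASO, below every KO_PBS sample, and 4 of its 6 markers were called lower (3 to 6 over the settings). The sum of the 4 fibroblast markers was 383 to 1303 CPM in KO_ASO and 967 to 1691 CPM in KO_PBS, which overlap. Of these markers Dcn was called lower (log2FC -0.68, adjusted p = 0.039), 3 were at an unadjusted p under 0.05, and the median log2FC was -0.79. DESeq2, limma-voom and library totals alone each called 2 of the 4 lower, and 0 were called without a filter on low counts or with the compared groups alone. Of the slow-fibre genes edgeR called 0 (0 at an unadjusted p under 0.05, and 0 in DESeq2 and in limma-voom). The part of these shifts in the members' values was not tested.

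In wild-type mice no member was called between WT_ASO and WT_PBS (edgeR, 0 of 10, with 0 at an unadjusted p under 0.05 and 0 in DESeq2 and in limma-voom), where 0.00668% of all tested genes were called. No member's groups were apart, where 3.22% of all tested genes did not overlap. Log2FC ran from -0.12 for Ankrd2 to 0.55 for Actc1. For Xirp1 the log2FC was -0.01 with a 95% interval of -0.51 to 0.50, and for Flnc 0.01 with an interval of -0.375 to 0.40 that turned to -0.03 with library totals alone. Xirp2 read 2134, 2136, 2161 and 1675 CPM in WT_ASO, so that 3 samples lay together and replicate 4 lay below all WT_PBS samples. Csrp3 (CV 83.7%) and Actc1 (73.3%) varied most within WT_ASO, Actc1 reading 190.3, 468.7, 1392 and 1455 CPM.

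The difference between the effects of ASO1 in the 2 genotypes was tested as an interaction, in which edgeR called 0 members (2 at an unadjusted p under 0.05, and 0 in DESeq2 and in limma-voom), where 0.575% of all tested genes were called. The 2 were Xirp1 (interaction -1.0 on the log2 scale, SE 0.338, adjusted p = 0.21) and Flnc (-0.63, SE 0.26, adjusted p = 0.32). An effect of ASO1 on Xirp1 that differs between knockout and wild type was thus not called, although it was called in KO_ASO vs KO_PBS alone.

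Treated knockouts were also set against wild types. Against WT_PBS edgeR called 0 members (5 at an unadjusted p under 0.05, and 0 in DESeq2 and in limma-voom), where 0.0401% of all tested genes were called. The KO_ASO samples nevertheless lay above all WT_PBS samples for Ankrd2, Csrp3, Xirp1 and Flnc, where 2.38% of all tested genes were apart and higher. The log2FC was 1.86 for Csrp3 (95% interval 0.25 to 3.46, adjusted p = 0.556), 1.37 for Ankrd1 (0.20 to 2.54, 0.547), 1.35 for Ankrd2 (0.14 to 2.55, 0.556), 0.71 for Xirp1 (0.20 to 1.22, 0.444) and 0.52 for Flnc (0.13 to 0.90, 0.484). Against WT_ASO edgeR again called 0 members (4 at an unadjusted p under 0.05, and 0 in DESeq2 and in limma-voom), where 0.0735% of all tested genes were called. Ankrd2 and Csrp3 were the members whose KO_ASO samples lay above every WT_ASO sample, where 2.96% of all tested genes were apart and higher. The same KO_ASO samples enter both comparisons.

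For each member called in KO_PBS vs WT_PBS, the genes most like it were found by the smallest root mean square distance of log2 CPM, centred over the 16 samples, among 12103 genes. Nearest to Flnc was Ehd4, an endocytic recycling protein, at a distance of 0.128, followed by Micall1 (0.21) and A330074K22Rik (0.211). Xirp1 was nearest to Map1a (0.265), a microtubule-associated protein, Arhgap22 (0.276) and Spsb2 (0.277), and Xirp2 to Usp28 (0.132), Tns3 (0.141) and Cast (0.142), the gene of the calpain inhibitor calpastatin. Ankrd1 was nearest to Cx3cl1 (0.50), Spsb2 (0.55) and Tnfrsf12a (0.571), the TWEAK receptor, and Csrp3 to Myom3 (0.551), an M-band protein, Tnni1 (0.662) and Gm5532 (0.828). Each distance describes these 16 samples, and a member that varied more, such as Csrp3, had larger distances to its nearest genes. Among the members themselves the closest pair was Xirp2 and Flnc (0.284), and Xirp1 and Flnc were 0.305 apart, while Ankrd2 and Csrp3 were 0.651 apart.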

How the data were processed

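RNA sequencing of the tibialis anterior of 16 mice was analysed from 1 table that the authors deposited, with raw read counts for each Ensembl gene and sample. Tools named in the submitters' processing notes are HTSeq 0.6.1p1, STAR 2.5.3a, Bowtie2 2.2.8 and cutadapt 1.10, with GRCm38 as the build. For their roles, the strand setting of the counting, the read length and the annotation release, the answer is not given in the sources read. The library kit was stranded, per the labels, and no member overlaps an antisense gene with a mean of at least 10 counts. The design text speaks of groups of mice, so each of the 4 numbered samples in a group was taken as 1 mouse, although no label identifies the animal. If any shared an animal, p-values would measure technical spread in part.

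Genes were filtered with filterByExpr by group (14770 left out). After TMM scaling, edgeR 4.0.16 (R 4.3.3) was used for a robust quasi-likelihood fit of all 16 samples, each group having its own mean, with Benjamini-Hochberg adjustment over all tested genes of a comparison and a threshold of 0.05. The SE was the log2FC divided by the square root of the F statistic. Log2 CPM used a prior count of 2, and TPM the union exon lengths of GENCODE M21. Alternatives were no filter, other scalings (DESeq2 size factors, library totals), DESeq2 1.42.0, limma 3.58.1 voom, the compared groups alone, a replicate block and leaving out each sample.

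The members and gene lists were chosen with earlier results of these data known. All members were named, and from each list the up to 3 genes with the smallest p among those called in KO_PBS vs WT_PBS, or otherwise the 2 with the smallest p. For each called member the 3 nearest genes with a mean of at least 1 CPM were named.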

Additional observations from a re-analysis of the deposited data

Results flagged for a closer look

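In the 40 groups of 4 samples examined (10 members in 4 groups), 2 held a sample that stood apart from the other 3 by Dixon's criterion, which sets the gap to the nearest sample against the whole range. Chance flags about 1 in 20 groups. Ankrd2 in KO_ASO had replicate 1 at 533 CPM, a gap of 0.862 of the range above the other 3 samples at 227.1 to 269.2 CPM. The same animal had the highest summed level of slow-fibre genes of all 16 samples (752.2 CPM). Xirp2 in WT_ASO had replicate 4 at 1675 CPM, a gap of 0.944 of the range below the other 3 samples at 2134 to 2161 CPM. Neither pattern was tested further.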

How the results depend on the processing

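Limits first: with 4 samples a group, members that varied widely (Csrp3, Ankrd1, Ankrd2, Actc1) had intervals several-fold wide, and depth was not the limit, since each member had at least 242 counts in every sample. Under library totals alone the median log2FC of all tested genes in KO_PBS vs WT_PBS was 0.14, against -0.01 with TMM, and changes are relative to the TMM scale.

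Of 1370 values of single members under an alternative, 1277 kept their sign and their side of the threshold, 23 calls were lost, 14 were gained and 56 values turned sign, all of them among differences that were not called. The calls lost or gained in KO_PBS vs WT_PBS and KO_ASO vs KO_PBS stand beside each member, except those gained with the replicate block, which are given below. Leaving out 1 sample at a time gave 2 to 6 members called in KO_PBS vs WT_PBS, where all samples gave 5, and 0 to 3 in KO_ASO vs KO_PBS, where all samples gave 1. In KO_ASO vs KO_PBS, 0 members were called with no filter and with the compared groups alone, and 2 with library totals alone and in DESeq2. The other 4 contrasts had 0 members called in every setting run.

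No label ties samples of the same number, and the samples were not treated as paired, because a correlation of deviations over 0.1 in every same-numbered pair was required: these ran from -0.0777 to 0.435, with 11 of 24 over 0.1. A sample's best match among the 4 samples of another group nevertheless carried its own number in 29 of 48 cases, which is a hint from the data, not from the design. With the replicate block, 6 members were called in KO_PBS vs WT_PBS (Ankrd2 added, adjusted p = 0.0445) and 2 in KO_ASO vs KO_PBS (Flnc added, adjusted p = 0.0387). Calls over all tested genes rose as well, from 1878 to 2322 and from 544 to 752, and in KO_ASO vs WT_ASO from 11 to 44. Under the block the log2FC of Nrap was -0.021 in KO_ASO vs KO_PBS, that of Flnc -0.0109 in WT_ASO vs WT_PBS, and the interaction of Ankrd2 0.13.

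With library totals alone, sign turned for Acta1 (0.0083) and Actc1 (0.0803) in KO_PBS vs WT_PBS, Nrap (-0.0905) and Acta1 (-0.0397) in KO_ASO vs KO_PBS and Flnc (-0.0308) in WT_ASO vs WT_PBS. In limma-voom it turned for Actc1 in KO_PBS vs WT_PBS (0.0162) and WT_ASO vs WT_PBS (-0.041) and for the interaction of Ankrd2 (0.0224). The cause was not tested. Over single samples left out, values that turned sign ranged in KO_PBS vs WT_PBS from -0.32 to 0.27 for Actc1. In KO_ASO vs KO_PBS they ranged from -0.51 to 0.31 for Ankrd2, -0.17 to 0.15 for Nrap and -0.325 to 0.089 for Actc1. In WT_ASO vs WT_PBS they ranged from -0.52 to 0.17 for Ankrd2, -0.60 to 0.26 for Csrp3, -0.20 to 0.13 for Xirp1, -0.0929 to 0.0204 for Xirp2, -0.0774 to 0.21 for Nrap and -0.10 to 0.11 for Flnc. In KO_ASO vs WT_PBS they ranged from -0.21 to 0.12 for Ankrd23, -0.0196 to 0.30 for Nrap, -0.14 to 0.000418 for Acta1 and -0.42 to 0.17 for Actc1, and in KO_ASO vs WT_ASO from -0.13 to 0.24 for Nrap. For the interaction they ranged from -0.39 to 0.44 for Ankrd2, -0.28 to 0.0915 for Nrap and -0.18 to 0.00613 for Acta1.

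Over all tested genes, 1878 were called in KO_PBS vs WT_PBS (1112 higher, 766 lower), 2202 with library totals alone (1942 higher, 260 lower) and 997 without KO_PBS replicate 1. In KO_ASO vs KO_PBS 544 were called (120 higher, 424 lower), 760 with library totals alone (63 higher, 697 lower), 1056 in DESeq2, 1190 in limma-voom, 300 with the compared groups alone and 208 without KO_PBS replicate 1. DESeq2 called 33 genes in WT_ASO vs WT_PBS where edgeR called 1, 95 in KO_ASO vs WT_PBS where edgeR called 6, 422 in KO_ASO vs WT_ASO where edgeR called 11, and 385 in the interaction where edgeR called 86.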

Other observations

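Some partners of the members showed an effect of ASO1 that differed between the genotypes by the test of that difference. Des, the desmin gene, measured 2837 ± 312 CPM (SD, n = 4) in WT_PBS, 3145 ± 175 CPM in WT_ASO, 4768 ± 396 CPM in KO_PBS and 3156 ± 179 CPM in KO_ASO (edgeR interaction -0.74 on the log2 scale, SE 0.136, adjusted p = 0.0234). Klhl40, the gene of a thin filament chaperone adaptor, measured 105.1 ± 14.4, 121.7 ± 26.0, 310.0 ± 43.4 and 150.7 ± 12.4 CPM in the same order of groups (interaction -1.25, SE 0.204, adjusted p = 0.0116). Of the 10 members edgeR called 0 in this test (2 at an unadjusted p under 0.05, and 0 in DESeq2 and in limma-voom). Myog, the gene of the muscle regulatory factor myogenin, was the 1 listed gene that edgeR called between KO_ASO and WT_PBS, at 12.6 ± 5.46 against 3.30 ± 0.716 CPM (log2FC 1.94, SE 0.315, edgeR adjusted p = 0.0418). No gene of its list was called with no filter, with the compared groups alone, with the replicate block or in limma-voom, and DESeq2 called 1 gene in each of 5 further lists (Z-disc partners, chaperones, slow fibre, heart and satellite cell).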
